A study of Mus musculus with 8 samples.

Results

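The genes described here encode the machinery of inflammatory cell death: *Nlrp3*, *Pycard*, *Casp1*, *Casp4* and *Gsdmd* of pyroptosis, *Zbp1*, *Ripk1*, *Ripk3* and *Mlkl* of necroptosis, and *Casp8*, which lies between the pathways. They were chosen by name, and all 10 were found among the 23282 rows of the count data. A group change is given only for the 6 genes whose row stands among rows of genes that are their neighbours in the genome (*Zbp1*, *Ripk1*, *Ripk3*, *Mlkl*, *Casp8* and *Gsdmd*), and the counts of the other 4 are given as deposited.

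RNA was measured in whole livers of C57BL/6 mice that the labels describe as males aged 4 weeks. The control group received saline, and the endotoxemic group received 25 mg/kg lipopolysaccharide (LPS, bacterial endotoxin) by intraperitoneal injection. The LGK974 group received LGK974, a small molecule that blocks Porcupine and thereby the secretion of Wnt proteins; its labels name LGK974 only, and the methods of the study give 60 mg/kg LGK974 with 25 mg/kg LPS. By those methods most livers were taken 6 h after LPS, and LGK974 preceded LPS by 2 h in most experiments. No group received LGK974 without LPS. The sources do not say that the libraries of a group came from separate mice, so p-values measure only the spread between these libraries, which may be technical.

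Of the 8 libraries, endotoxemic library 3 was identical to library 1, and library 4 to library 2, on all 23282 rows, and each pair was counted once, which left 2 libraries in each of the 3 groups. Their total counts ranged from 9142116 to 15222439, at which 3 counts correspond to 0.197 to 0.328 CPM, the count scaled to the size of the library. The labelled sex did not hold across groups. *Xist*, which is transcribed from the inactive X chromosome of females, had 1171 to 3115 counts in the control and endotoxemic libraries and 3 and 7 counts in the LGK974 libraries. The Y-linked gene *Ddx3y* had 0 counts in the former and 1755 and 1392 counts in the latter. Thus the LGK974 treatment and the sex of the mouse cannot be told apart in either comparison that includes the LGK974 group.

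The rows of the count data are arranged by chromosomal position, but of 23135 rows with a known position 591 lay more than 2 Mb from the place of their gene. Among them were the rows named *Casp1*, *Casp4*, *Pycard* and *Nlrp3*. The row named *Casp1*, a gene of chromosome 9, stood next to *Cdk6* of chromosome 5, and the row named *Casp4*, also of chromosome 9, stood next to *Tat* of chromosome 8. *Pycard* (chromosome 7) was found beside *Il1bos* of chromosome 2, and *Nlrp3* (chromosome 11) between *Cars* and *Osbpl5* of chromosome 7. By contrast, *Casp8* stood between *Cflar* and *Trak2*, *Gsdmd* between *Zc3h3* and *Mroh6*, *Ripk1* between *Nqo2* and *Bphl*, *Ripk3* between *Adcy4* and *Nfatc4*, *Mlkl* between *Rfwd3* and *Fa2h*, and *Zbp1* between *Pck1* and *Pmepa1*, as in the genome.

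**Figure D1:**
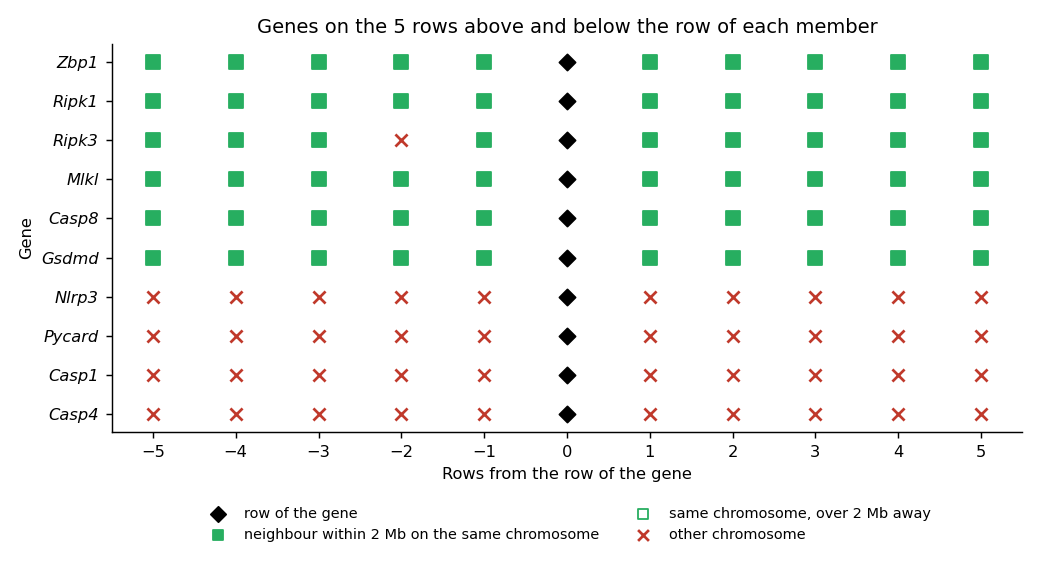
The genes named on the 5 rows above and below the row of each of the 10 genes (x axis, rows from the row of the gene; y axis, gene), where a filled square is a gene within 2 Mb on the same chromosome and a cross is a gene of another chromosome. The 6 upper genes stand among neighbours of their own chromosome, apart from 1 row near *Ripk3*, and the 4 lower genes stand among genes of other chromosomes.

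Pyroptosis and necroptosis are lytic forms of cell death in which the plasma membrane is opened from within and cell contents that drive inflammation escape. In pyroptosis, a sensor such as NLRP3 joins the adaptor ASC (encoded by *Pycard*) and caspase-1, or caspase-11 (encoded by *Casp4* in the mouse) binds LPS in the cytosol, and the caspase then cuts gasdermin D (*Gsdmd*), whose free part forms pores. In necroptosis, RIPK1, activated below the TNF receptor, or ZBP1, a sensor of Z-form nucleic acids, engages RIPK3, which phosphorylates the pore-forming MLKL, while caspase-8 cuts RIPK1 and RIPK3 and holds this route back. In the liver, *Gsdmd* and *Casp8* are expressed in hepatocytes and immune cells alike, whereas RIPK3 is scarce in healthy hepatocytes.

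The promoters of *Ripk1* and *Mlkl* are shown because of the 6 genes in genomic order *Ripk1* was the single one with a called difference between LGK974 and endotoxemic mice, and *Mlkl* had the largest difference between endotoxemic and control mice. The RefSeq windows, on GRCm38.p6, hold 250 bases before and 50 bases after a transcription start; 8 of the 10 genes had 1 or more of them, 11 windows in all, and *Gsdmd* and *Zbp1* had none. Both strands were searched for GGGA, any base, TT, any base and CC (NF-κB), for GAAA, any 2 bases and GAAA (the interferon-stimulated response element, ISRE), and for TTCNNNGAA with N as any base (the interferon-gamma-activated site, GAS). These letters are held by 1.2%, 3.44% and 8.3%, respectively, of 32851 windows of the same length. The downstream start of *Ripk1* (chr13:34002624-34002923, plus strand) had GAS letters that begin 108 and 11 bases before the start, and ISRE letters that begin 5 bases before it and overlap the nearer GAS match. The window of *Mlkl* (chr8:111338156-111338455, minus strand) held none of the 3. Capitals mark the matches, and a match of letters is not a measured site.
Ripk1: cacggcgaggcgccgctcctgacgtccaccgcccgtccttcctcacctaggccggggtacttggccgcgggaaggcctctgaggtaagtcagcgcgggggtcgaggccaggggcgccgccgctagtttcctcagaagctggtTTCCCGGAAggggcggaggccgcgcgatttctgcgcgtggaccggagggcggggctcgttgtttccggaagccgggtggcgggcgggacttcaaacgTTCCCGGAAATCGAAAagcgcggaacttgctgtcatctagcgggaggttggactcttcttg
Mlkl: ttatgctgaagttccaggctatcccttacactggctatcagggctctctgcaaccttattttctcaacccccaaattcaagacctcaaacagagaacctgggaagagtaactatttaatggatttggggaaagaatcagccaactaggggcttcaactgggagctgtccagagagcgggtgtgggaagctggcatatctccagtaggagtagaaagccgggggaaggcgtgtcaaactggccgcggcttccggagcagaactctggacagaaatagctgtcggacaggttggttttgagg

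Of the other windows, only those of *Casp4* held a match, the NF-κB letters GGGATTTCCC 92 bases before its upstream start, which the overlapping window of its other start shares. The windows of *Casp1*, *Casp8*, *Ripk3*, *Pycard* and *Nlrp3* and the upstream window of *Ripk1* held none of the letters searched, which says only that these letters are not in these windows.

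The comparison of endotoxemic with control mice asked how LPS alone altered these genes in the liver. The genes that rose were 5: *Mlkl* and *Zbp1* by 39.55-fold and 27.97-fold, *Gsdmd* by 4.15-fold, *Ripk1* by 2.70-fold and *Casp8* by 2.15-fold. *Ripk3* was 2.28-fold higher but did not pass the test. Thus 5 of the 6 genes in genomic order were called higher and 0 lower, where 20.4% of the 12701 rows tested were called higher and 23.0% lower. At an unadjusted p below 0.05 and with DESeq2 the counts were the same, 5 higher and 0 lower. The endotoxemic libraries were above both control libraries for all 6, as they were for 37.9% of the rows tested, with 39.2% below. All 6 passed the filter on low counts, although *Mlkl* and *Ripk3* did so only through the groups that received LPS. Those genes therefore carry no weight in the counts of genes called higher or not overlapping. Tests throughout were quasi-likelihood F tests of edgeR, and adjusted p-values are those of Benjamini and Hochberg over all rows tested, called below 0.05.

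*Zbp1* (chr2:173206612-173218923, minus strand), the nucleic acid sensor and itself an interferon-induced gene, was counted 47 and 97 times in control mice against 1334 and 1473 times in endotoxemic mice, or 4.36 and 6.34 against 146 and 157 CPM. The endotoxemic libraries lay close together and far above both control libraries. The rise was 4.81 on the log2 scale (SE 0.38, 95% interval 3.94 to 5.67, adjusted p = 1.92e-05). Among the 16 alternative analyses the log2 fold change of *Zbp1* ranged from 4.57 to 5.12, and each of them called it.

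*Ripk1* (chr13:34002363-34037147, plus strand), the kinase that is recruited to the TNF receptor and decides between survival and death signaling, was counted 227 and 300 times in control mice and 548 and 470 times after LPS. The CPM of 21.1 and 19.6 in control mice and 59.8 and 50.1 in endotoxemic mice did not overlap, and *Ripk1* rose by 1.43 on the log2 scale (SE 0.26, 95% interval 0.84 to 2.03, adjusted p = 0.00224). Only *Ripk1* overlaps another counted gene, sharing 432 bases at its 5′ end with *Serpinb6a* of the opposite strand, 34.4 kb from the 3′ end where the sequenced tags lie. The level of *Serpinb6a* was 14.9 and 20.5 CPM in control mice and 6.22 and 12.8 CPM in endotoxemic mice.

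*Ripk3* (chr14:55784995-55788865, minus strand), the kinase that activates MLKL, was scarce in each library. Its counts were 8 and 15 in control mice and 14 and 23 in endotoxemic mice, which is 0.742 and 0.980 against 1.53 and 2.45 CPM. The libraries of the groups did not overlap, but the difference of 1.19 on the log2 scale (SE 0.58, 95% interval −0.12 to 2.49) did not pass the test (adjusted p = 0.128, range 0.0216 to 0.466 over 15 alternatives). On the linear scale this interval spans 0.919-fold to 5.63-fold.

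*Mlkl* (chr8:111311797-111338177, minus strand), whose product permeabilizes the membrane in necroptosis, was almost absent from control mice, with 2 and 21 counts, and reached 322 and 306 counts after LPS. The CPM values were 0.186 and 1.37 against 35.1 and 32.6, so that even the higher control library was far below the endotoxemic ones. *Mlkl* rose by 5.31 on the log2 scale (SE 0.57, 95% interval 4.01 to 6.60, adjusted p = 0.000101). The size of this rise rested on the few control counts: the log2 fold change was 4.61 without control library 1 and 7.43 without control library 2, and each of the 15 alternatives that kept the gene called it.

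*Casp8* (chr1:58795374-58847503, plus strand), the initiator caspase that starts apoptosis below death receptors and restrains necroptosis, was counted 156 and 226 times in control mice and 246 and 339 times after LPS. Its level of 14.5 and 14.8 CPM in control mice was nearly the same in both libraries, whereas the endotoxemic libraries differed more, at 26.8 and 36.1 CPM. *Casp8* rose by 1.11 on the log2 scale (SE 0.23, 95% interval 0.59 to 1.62, adjusted p = 0.0042). Without endotoxemic library 2 the log2 fold change was 0.88, and the adjusted p of 0.0504 just missed the threshold; the other 15 alternatives called it.

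*Gsdmd* (chr15:75862327-75867408, plus strand), the substrate of the inflammatory caspases and the pore of pyroptosis, was counted 121 and 192 times in control mice and 415 and 503 times after LPS. The CPM rose from 11.2 and 12.6 to 45.3 and 53.6, a log2 fold change of 2.05 (SE 0.23, 95% interval 1.53 to 2.58, adjusted p = 0.00013). All 16 alternatives called *Gsdmd*, with log2 fold changes from 1.93 to 2.23.

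**Figure D2:**
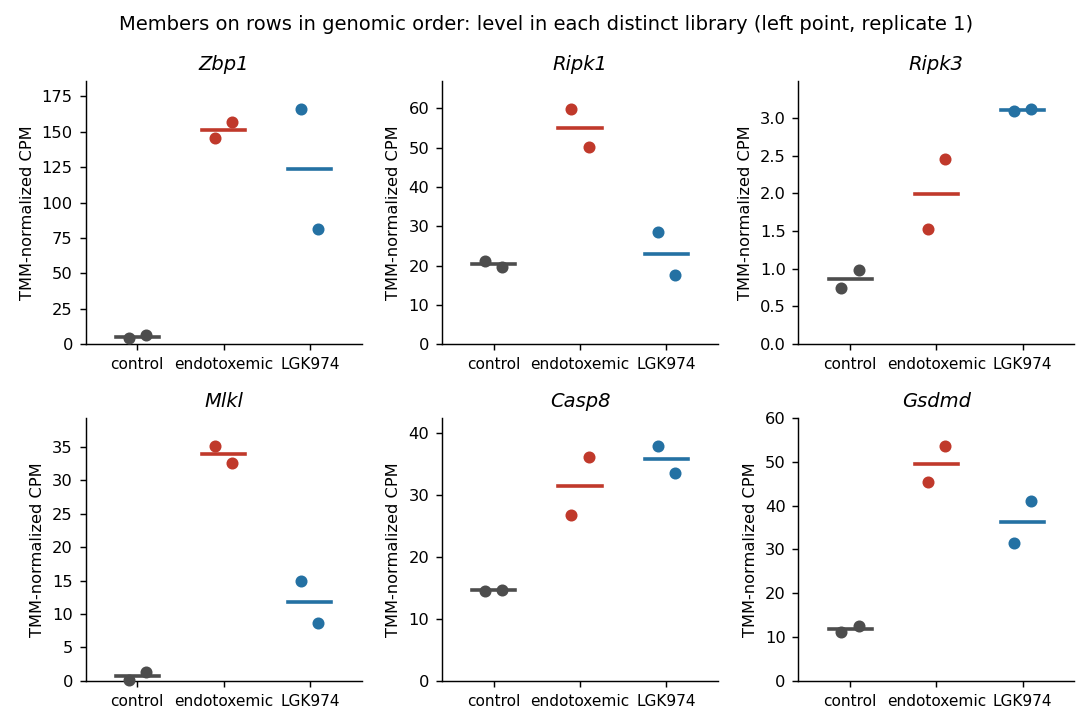
Level of each of the 6 genes in genomic order in the 6 distinct libraries, in TMM-normalized CPM on a linear axis from 0, with 1 point per library and a line at the mean of each group (n = 2). The endotoxemic libraries lie above the control libraries in every panel, whereas the LGK974 libraries of *Ripk1*, at 28.6 and 17.5 CPM, lie on either side of the control libraries.

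The comparison of the LGK974 with the endotoxemic group asked what LGK974 changed in mice that had received LPS. Only *Ripk1* fell, to 0.419 of its endotoxemic level, and *Mlkl*, *Gsdmd* and *Zbp1* had lower and *Casp8* and *Ripk3* higher means without passing the test. Thus 1 of the 6 genes was called lower and 0 higher, where 2.82% of rows tested were called lower and 2.80% higher. At an unadjusted p below 0.05, and likewise with DESeq2, 2 were lower, *Ripk1* and *Mlkl*, and 0 higher. The LGK974 libraries were below both endotoxemic libraries for *Ripk1*, *Mlkl* and *Gsdmd*, as for 26.0% of the rows tested, and above them for *Ripk3*, as for 26.5%. This comparison uses the same endotoxemic libraries as the comparison with control mice.

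*Ripk1* had 379 and 259 counts in the LGK974 libraries, or 28.6 and 17.5 CPM, both below the 50.1 CPM of the lower endotoxemic library. The log2 fold change was −1.25 (SE 0.26, 95% interval −1.84 to −0.66, adjusted p = 0.0282). The call was not stable: 11 of 16 alternatives passed the threshold, and the adjusted p was 0.198 and 0.146 without endotoxemic library 1 and 2, 0.0724 and 0.072 without control library 1 and 2, and 0.067 when only the endotoxemic and LGK974 groups were fitted. In each of the 16 alternatives *Ripk1* was lower in the LGK974 group, with log2 fold changes from −1.65 to −0.94. *Serpinb6a* was at 17.1 and 16.9 CPM in the LGK974 libraries, 0.84 above the endotoxemic group on the log2 scale (adjusted p = 0.197).

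*Mlkl* had 198 and 128 counts in the LGK974 libraries, or 14.95 and 8.66 CPM, which is below both endotoxemic libraries and above both control libraries. The mean was 0.348 of the endotoxemic level, but with a log2 fold change of −1.52 (SE 0.45, 95% interval −2.53 to −0.52) the gene did not pass the adjusted test (unadjusted p = 0.00746, adjusted p = 0.0811). It passed in 4 of 15 alternatives: when low rows were kept (adjusted p = 3.01e-05), by DESeq2 (0.0107), with the identical libraries entered separately (0.0142), and without LGK974 library 1 (log2 fold change −1.96, adjusted p = 0.00574). The highest adjusted p was 0.304, without endotoxemic library 2.

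*Gsdmd*, at 31.5 and 41.1 CPM from 418 and 608 counts, was lower in both LGK974 libraries than in either endotoxemic library, and the log2 difference of −0.44 (95% interval −0.94 to 0.05, adjusted p = 0.266) passed in 0 of 16 alternatives. *Zbp1* had 2198 and 1201 counts, or 166 and 81.3 CPM, so that LGK974 library 1 exceeded both endotoxemic libraries and library 2 was below both. The log2 difference of *Zbp1* was −0.29 (95% interval −1.01 to 0.42, adjusted p = 0.624), −0.89 without LGK974 library 1 (adjusted p = 0.0119) and 0.13 without LGK974 library 2 (adjusted p = 0.741), and 1 library therefore decided its direction. *Casp8*, at 38.0 and 33.6 CPM from 503 and 497 counts, overlapped the endotoxemic libraries, with a log2 difference of 0.18 (95% interval −0.32 to 0.69, adjusted p = 0.664) that was −0.04 without endotoxemic library 1. *Ripk3* had 41 and 46 counts, or 3.10 and 3.11 CPM, above both endotoxemic libraries, and the log2 difference of 0.64 (95% interval −0.57 to 1.85, adjusted p = 0.517) did not pass.

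The comparison of the LGK974 with the control group shows which genes were above the control level when LPS was given with LGK974. *Zbp1* was 22.8-fold, *Mlkl* 13.8-fold, *Ripk3* 3.54-fold, *Gsdmd* 3.05-fold and *Casp8* 2.45-fold above the control level, and *Ripk1* was at 1.13 times that level. Thus 5 of the 6 genes were called higher and 0 lower, where 16.4% of the rows tested were called higher and 17.7% lower, and the counts at an unadjusted p below 0.05 and with DESeq2 were also 5 and 0. The LGK974 libraries were above both control libraries for the same 5 genes, as for 33.8% of rows tested, with 34.3% below. Of these 5 genes, *Mlkl* and *Ripk3* passed the filter on low counts only through the groups that received LPS. They therefore carry no weight in either count. This comparison shares its libraries with the other 2.

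The log2 fold changes were 4.51 for *Zbp1* (SE 0.38, adjusted p = 3.25e-05), 3.78 for *Mlkl* (SE 0.56, adjusted p = 0.000954), 1.61 for *Gsdmd* (SE 0.23, adjusted p = 0.000715) and 1.29 for *Casp8* (SE 0.23, adjusted p = 0.00244). Each of these was called in every alternative that kept the gene, with that of *Mlkl* at 3.09 without control library 1 and 5.91 without control library 2. For *Ripk1*, the 17.5 CPM of LGK974 library 2 were below both control libraries and the 28.6 CPM of library 1 above them. The log2 difference was 0.18 (95% interval −0.41 to 0.77, adjusted p = 0.632), and −0.21 without LGK974 library 1. *Ripk3* rose by 1.82 on the log2 scale (SE 0.56, 95% interval 0.56 to 3.09, adjusted p = 0.0331), but leaving out any of the 6 libraries ended the call, with adjusted p from 0.0501 to 0.158 and log2 fold changes from 1.65 to 2.05.

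In the order of mean levels, *Zbp1*, *Mlkl*, *Gsdmd* and *Ripk1* were highest in the endotoxemic, intermediate in the LGK974 and lowest in the control group, and *Casp8* and *Ripk3* were highest in the LGK974 group. Neighbours in this order whose difference did not pass the test were the endotoxemic and LGK974 groups for all but *Ripk1*, the LGK974 and control groups for *Ripk1*, and the endotoxemic and control groups for *Ripk3*.

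**Figure D3:**
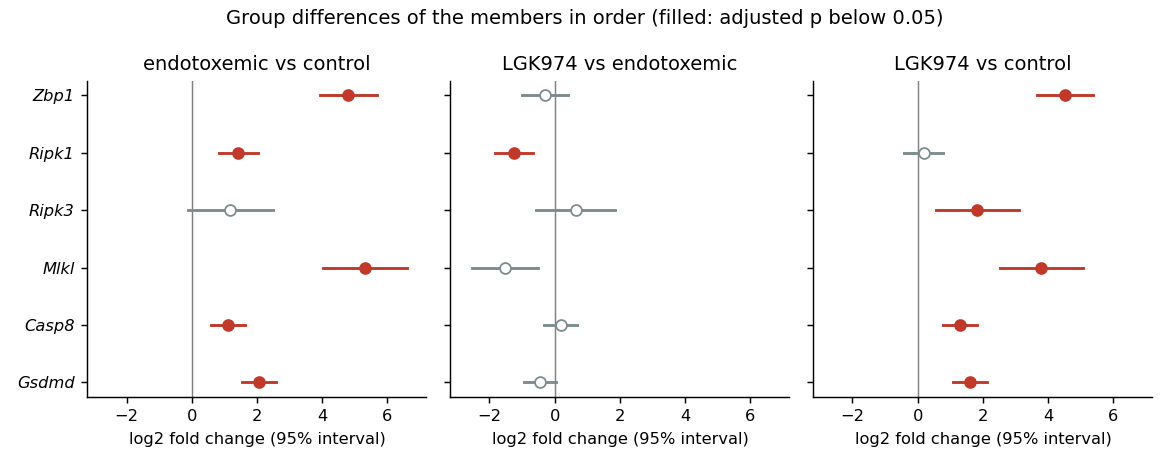
Log2 fold change of each of the 6 genes in the 3 comparisons (x axis), with its 95% interval as a bar, where a filled point has an adjusted p below 0.05 and an open point does not. *Mlkl* and *Zbp1* lie farthest from 0 in both comparisons with control mice, at 5.31 and 4.81 in the left panel, and in the middle panel *Ripk1* alone is filled.

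For the 4 genes out of genomic order, the rows give counts that cannot be read as levels of the gene named, and no change is drawn from them. The row named *Nlrp3*, after the sensor of the inflammasome, had 3 and 6 counts in control mice, 5 and 8 in endotoxemic mice, and 15 and 23 in mice of the LGK974 group. The row named *Pycard*, after the adaptor ASC, had 38 and 27, 1500 and 1758, and 248 and 538 counts, respectively. The row named *Casp1* had 18 and 31 counts in control mice, and that named *Casp4* had 4 and 13, and each had 0 counts in all endotoxemic and LGK974 libraries.

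The places where these genes lie were held by rows with other names. At the place of *Pycard* (chr7:127989708-127993867) stood a row named *Orm1*, after a plasma protein of hepatocytes, with counts of 7124 and 8865 in control mice, 37 and 46 after LPS, and 58 and 78 after LPS with LGK974. Between *Gria4* and *Casp12*, where *Casp1* (chr9:5298517-5307265) and *Casp4* (chr9:5308828-5336783) lie side by side, stood the rows named *Nfkbiz*, with 16 and 56, 51 and 53, and 28 and 43 counts, and *Thbs1*, with 1 and 8, 239 and 212, and 221 and 155 counts. At the place of *Nlrp3* (chr11:59541568-59566956) stood a row named *Ugt1a1*, with 23 and 66, 62 and 53, and 24 and 22 counts. Which gene these rows counted was not tested, so the sensor, adaptor and caspase steps of pyroptosis remain without a measured change.

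Likeness of pattern was described by Pearson's r of log2 CPM over the 6 distinct libraries, with 12218 other rows in genomic order compared. The points share their libraries and fall into 3 groups, and many rows reached a high r by following the groups: r was over 0.95 for 723 rows with *Zbp1*, 514 with *Mlkl*, 505 with *Gsdmd*, 287 with *Casp8*, 139 with *Ripk3* and 127 with *Ripk1*. The genes most like *Zbp1* were *Steap4* (r = 0.9991) and *Adck4* (0.9988), and those most like *Mlkl* were *Tmem18* (0.9992) and *Oas3* (0.9985), an interferon-induced sensor of double-stranded RNA. *Gsdmd* was most like *Csf2rb* (0.9975), a shared chain of cytokine receptors on myeloid cells, and *Ms4a6c* (0.9972). *Casp8* was most like *6330416G13Rik* (0.9994) and *Arl2bp* (0.9962), *Ripk3* like *Sergef* (0.9988) and *Rras* (0.9948), and *Ripk1* like *Ss18* (0.9958) and *Fam46a* (0.9945). Among the 6 genes themselves, r was highest for *Casp8* with *Ripk3* and for *Mlkl* with *Zbp1* (0.961 each) and lowest for *Ripk1* with *Ripk3* (0.172), the kinases that bind each other.

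The genes that act beside these 6 were taken from lists, of which only rows in genomic order were used. Their counts stand beside the shares of all rows tested given above: 20.4% called higher and 23.0% lower in endotoxemic against control mice, 2.80% and 2.82% in LGK974 against endotoxemic mice, and 16.4% and 17.7% in LGK974 against control mice. Cell type markers apart, where 0 genes of a list are given below for a direction, at most 1 had an unadjusted p below 0.05 in that direction. The exceptions were 2 necroptosis regulators and 2 ESCRT-III genes that were higher in LGK974 than in endotoxemic mice. DESeq2 called 0 in each of these cases. Among the genes called higher in endotoxemic mice, *Panx1*, *Pmaip1*, *Bcl2a1a*, *Irak3* and *Ifng* passed the filter on low counts only through libraries of mice that received LPS. Of the partners of RIPK1 at the TNF receptor, 8 of 23 tested rose in endotoxemic mice and 0 fell, with a median log2 fold change of 0.54 where the median of 12219 tested rows in order was 0.00. Among them were *Birc2* (log2 fold change 2.96, adjusted p = 2.42e-05) and *Birc3* (2.44, adjusted p = 0.000274), which encode the ubiquitin ligases that keep RIPK1 in its survival complex. Between LGK974 and endotoxemic mice edgeR called *Birc2* lower, by −1.16 on the log2 scale (adjusted p = 0.023), and no other gene of this list. DESeq2 called 4 of the 23 lower there, and 5 were lower at an unadjusted p below 0.05. This call of *Birc2* was lost without endotoxemic library 1 or 2 (adjusted p = 0.184 and 0.127), without control library 1 or 2 (0.0656 and 0.0646) and with the 2 groups alone (0.0617). Of the 23 genes, 7 were above the control level in the LGK974 group, *Birc2* by 1.81 and *Birc3* by 1.75, and 0 were below.

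Of the sensors and regulators around ZBP1, RIPK3 and MLKL, 8 of 15 rose in endotoxemic mice and 4 fell, with a median of 0.66. The largest rises were *Eif2ak2* (log2 fold change 2.43), which encodes the RNA-activated kinase PKR, and *Hsp90aa1* (2.10), a chaperone that RIPK3 needs. The genes that fell were *Aurka* (−2.03), *Ppm1b* (−1.27), whose product removes phosphate from RIPK3, *Cdc37* (−0.81), a partner of the chaperone, and *Stub1* (−0.78), a ubiquitin ligase that marks RIPK3 for degradation. Against the endotoxemic group 2 fell in the LGK974 group and 0 rose, namely *Adar* (−1.38, adjusted p = 0.0309), whose editing of double-stranded RNA limits ZBP1 activation, and *Ddx58* (−0.94, adjusted p = 0.0288), which encodes the RNA sensor RIG-I. Against control mice 4 genes rose in the LGK974 group: the flotillins *Flot1* (2.32) and *Flot2* (1.61), which carry MLKL away from the plasma membrane, *Hsp90aa1* (1.59) and *Eif2ak2* (1.39). There *Ppm1b* (−1.16) and *Mavs* (−0.87, adjusted p = 0.0475) fell.

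Several of these calls were near the threshold and were lost under alternatives. *Cdc37* and *Stub1* lost theirs whichever of the endotoxemic and control libraries was left out (adjusted p from 0.0768 to 0.218, with log2 fold changes of −0.90 to −0.72 for *Cdc37*), and *Aurka* without endotoxemic library 1 (0.187) and either control library (0.11 and 0.0834). Without endotoxemic library 2 the log2 fold change of *Aurka* was −2.76. *Adar* and *Ddx58* lost theirs without endotoxemic library 1 (0.132 and 0.151) or 2 (0.231 for each), and *Ddx58* also without either control library (0.0815 and 0.0798) and with the 2 groups alone (0.0703), although its log2 fold change stayed between −1.04 and −0.86. In the LGK974 group *Eif2ak2* lost its call against control mice without control library 1 or 2 (0.0622 and 0.0636), and *Mavs* was lost in 9 alternatives (0.0503 to 0.23).

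The ESCRT-III complex cuts off damaged membrane and so opposes the pores of gasdermin D and MLKL. Of its 16 genes 2 rose in endotoxemic mice and 0 fell with edgeR (3 and 0 with DESeq2), with a median of 0.21 and beside 20.4% of all rows called higher. *Chmp4b* was at 102 ± 15.6 CPM in control and 438 ± 76.7 CPM in endotoxemic mice (SD, n = 2; log2 fold change 2.11, adjusted p = 0.00039), whereas the rise of *Chmp2b* (0.75, adjusted p = 0.0252) was lost without any of the control and endotoxemic libraries (0.0518 to 0.163). Between LGK974 and endotoxemic mice edgeR called 0 of the 16, with 2 higher at an unadjusted p below 0.05 and 0 called by DESeq2. In the LGK974 group 3 were above the control level, *Chmp4b* by 2.03, *Chmp2b* by 1.07 (adjusted p = 0.0741 without control library 1) and *Chmp2a* by 0.62. The call of *Chmp2a* was lost without either endotoxemic library, either control library or LGK974 library 2 (adjusted p from 0.0677 to 0.183), and with the 2 groups alone (0.06).

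Among the inflammasome sensors and their partners, 14 of 24 rows were out of order and 7 of the other 10 could be tested. In endotoxemic mice 5 of these 7 rose and 0 fell, with a median of 1.79. They were *Panx1* (2.80, adjusted p = 0.0189), which encodes a membrane channel, *Nod1* (2.55), a sensor of bacterial peptidoglycan, *Nlrc5* (2.43), an activator of MHC class I genes, *Nek7* (1.16), which encodes the protein that NLRP3 needs to assemble, and *Nlrp12* (1.05). *Nlrc5* alone changed between LGK974 and endotoxemic mice, by −1.81 (adjusted p = 0.011). Against control mice *Nod1* (1.81), *Nlrp12* (1.06) and *Nek7* (0.70) rose in the LGK974 group. *Panx1*, with 8 and 2 counts in control mice, had a log2 fold change of 4.37 without control library 1 and 1.96 without control library 2. It lost its call without endotoxemic library 1 or 2 (adjusted p = 0.0747 and 0.0884) or control library 2 (0.11), *Nlrc5* that against the endotoxemic group without endotoxemic library 1 or 2 (0.0727 and 0.136), and *Nek7* that in the LGK974 group without endotoxemic library 2 (0.0523) or control library 1 or 2 (0.137 and 0.165). Of the gasdermins and the substrates and decoys of pyroptosis, 7 rows including *Il1b* and *Il18* were out of order, and of 3 genes tested only *Il18bp*, the decoy of interleukin-18, rose in endotoxemic mice (2.26, adjusted p = 0.00015), and it was also raised against control mice in the LGK974 group (1.44, adjusted p = 0.00254). Between LGK974 and endotoxemic mice *Il18bp* was at −0.82 (adjusted p = 0.0885), and 1 of the 3 genes was lower there with DESeq2 and at an unadjusted p below 0.05.

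**Figure D4:**
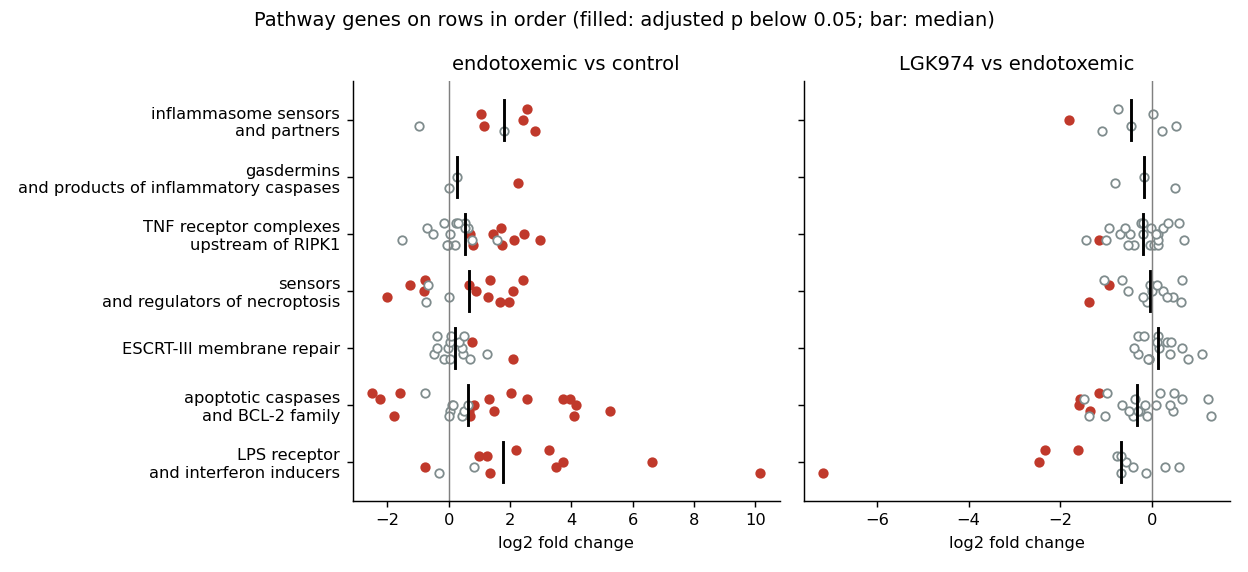
Log2 fold change of each tested gene of 7 lists (y axis) in the endotoxemic against control and the LGK974 against endotoxemic comparison (x axis), where filled points have an adjusted p below 0.05 and bars are list medians. The medians lie above 0 in the left panel, at 1.79 for the inflammasome sensors and 0.21 for ESCRT-III, and *Ifng*, at the far ends, is fitted from 0 counts in both control libraries on the left and from 2 and 0 counts in the LGK974 libraries on the right.

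Of the apoptotic caspases and the BCL-2 family, into whose pathway caspase-8 feeds, 12 of 24 rose in endotoxemic mice and 4 fell, with a median of 0.64. The largest rises were *Bcl2a1a* (5.25) and *Bcl2a1b* (4.15), whose counts are uncertain because these survival genes are near-identical copies that share reads. The genes that fell were *Bmf* (−2.50) and *Bik* (−2.24), killers of the BH3-only class, *Bok* (−1.78), an effector of the family, and *Casp9* (−1.58), the initiator caspase of the mitochondrial route. In the LGK974 group 4 were below the endotoxemic level and 0 above: *Bcl2a1b* (−1.59), *Bcl2a1d* (−1.58), *Bcl2a1a* (−1.35) and *Bcl2l1* (−1.17), all of which encode inhibitors of apoptosis. DESeq2 called 6 of the 24 lower there and 0 higher. Against control mice 7 rose in the LGK974 group, led by *Bcl2a1a* (3.90) and *Bax* (3.20), and 4 fell, *Bmf* (−2.03), *Bbc3* (−1.74), *Casp9* (−1.42) and *Bcl2l11* (−1.03).

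The 4 calls between LGK974 and endotoxemic mice were each lost without endotoxemic library 1 or 2 (adjusted p from 0.126 to 0.271), and those of *Bcl2a1a* and *Bcl2l1* also without control library 1 or 2 (0.0794 to 0.0985), with the 2 groups alone (0.068 and 0.0919) and with the replicate number as a block (0.0543 and 0.0586). *Bmf* had 22 and 5 counts in endotoxemic mice and *Bik* 18 and 3. Without endotoxemic library 1 the log2 fold changes were −3.88 for *Bmf* and −3.98 for *Bik*, and without endotoxemic library 2 they were −1.79 and −1.46. Of the falls in endotoxemic mice, that of *Bik* was lost without endotoxemic library 2 or either control library (0.096 to 0.168), that of *Bok* without endotoxemic library 1 (0.106) or control library 1 (0.0705), and that of *Casp9* without control library 1 (0.0511). In the LGK974 group the falls of *Bmf* (0.0829 and 0.101) and *Bcl2l11* (0.0987 and 0.0838) were lost without control library 1 or 2, that of *Bcl2l11* also with the 2 groups alone (0.0546), and that of *Casp9* without control library 1 (0.0947).

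The receptor complex of LPS was mostly out of order, with *Tlr4*, *Ly96*, *Cd14* and *Myd88* among 8 such rows, but 12 further genes of LPS and interferon signaling were tested. In endotoxemic mice 9 of these rose and 1 fell, with a median of 1.77. *Irak3*, which encodes a brake on Toll-like receptor signaling, rose by 6.64 from 2 and 8 counts in the control libraries (7.63 without control library 2), and *Irak1* fell by 0.77 (adjusted p = 0.0123), a call lost without any of the control and endotoxemic libraries (0.0667 to 0.109). *Ifng*, which encodes interferon-gamma, an inducer of many of the genes above, had 0 counts in both control libraries, 93 and 127 after LPS, and 2 and 0 after LPS with LGK974. With the control libraries at 3 counts each, *Ifng* was at least 49.9-fold higher in the endotoxemic group, and the list median stayed at 1.77 with *Ifng* at this bound. Of the 12, 0 were higher and 4 lower in LGK974 than in endotoxemic mice, the latter including *Ifng* (adjusted p = 0.00399, 0.0665 without endotoxemic library 2), *Irf8* (−2.48, adjusted p = 0.00684, 0.0642 without endotoxemic library 2) and *Irf1* (−2.33). *Irf8* and *Irf1* encode transcription factors of the interferon response. In the LGK974 group 4 were above control mice: *Irak3* (6.08), *Irf7* (3.07), *Irf8* (1.25) and *Irf1* (0.94). The value of *Irak3* there was 7.06 without control library 2 and 5.31 without LGK974 library 1, and without the latter library those of *Irf7* and *Irf8* were 2.41 and 0.53. Against the endotoxemic group *Irf8* was at −3.19 without LGK974 library 1. Without control library 1 or 2 or LGK974 library 1 the calls of *Irf8* (adjusted p = 0.13, 0.0935 and 0.0545) and *Irf1* (0.0781, 0.265 and 0.0554) were lost, that of *Irf1* also with the identical libraries entered separately (0.0652).

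Markers of the cell types of the liver were also read, and their levels did not all move the same way. The liver label held, since the 7 hepatocyte markers in order summed to 87880 CPM or more in control mice. They summed to 38170 to 55150 CPM in endotoxemic and 40560 to 44290 CPM in LGK974 mice, and 6 of the 7 fell in endotoxemic mice, *Alb* and *Ttr* among them. Of all rows tested, 20.4% were called higher and 23.0% lower in endotoxemic against control mice. The shares were 2.80% and 2.82% in LGK974 against endotoxemic mice, and 16.4% and 17.7% in LGK974 against control mice. Counts of markers called, here and below, stand beside these shares. In bulk tissue, fewer cells of a type and less RNA per cell cannot be told apart. The 6 neutrophil markers in order summed to 3.27 and 4.08 CPM in control, 111 and 117 CPM in endotoxemic, and 77.2 and 81.7 CPM in LGK974 mice. The 6 were called higher in endotoxemic mice, but 4 of them (*Csf3r*, *Mmp8*, *Camp* and *Ngp*, the last pair at 0 in both control libraries) passed the filter on low counts only through the groups that received LPS, so that their calls carry no weight as a count. The 5 monocyte markers summed to 11.7 and 14.3, 188 and 219, and 145 and 157 CPM, respectively, and 4 of the 5 were called higher, 3 of them genes that the control libraries alone would not have carried through the filter. Of these 11 markers edgeR called 0 between LGK974 and endotoxemic mice, with 3 lower at an unadjusted p below 0.05 and 2 lower with DESeq2. The part of these cells in the rise of *Zbp1*, *Mlkl*, *Gsdmd*, *Ripk1* and *Casp8* was not tested.

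The 7 Kupffer cell markers, of the macrophages that reside in the liver, summed to 188 and 204 CPM in control, 202 and 207 CPM in endotoxemic, and 127 and 164 CPM in LGK974 mice, and within the list *Marco* rose while *Clec4f*, *Vsig4* and *C1qa* fell in endotoxemic mice. Between LGK974 and endotoxemic mice *Clec4f* was lower, at a mean of 8.08 against 19.9 CPM, and the median log2 fold change of the Kupffer cell list was −0.51. The 7 sinusoidal endothelial markers summed to 350 CPM in each control library, 421 and 440 CPM in endotoxemic and 465 and 556 CPM in LGK974 mice, but this sum was carried by *Lyve1*, which rose in both groups that received LPS. Of the 7, 5 fell in endotoxemic mice (*Clec4g*, *Kdr*, *Dnase1l3*, *Fcgr2b* and *Oit3*), with a median log2 fold change of −1.24, and 6 were below control mice in the LGK974 group, with a median of −1.52. *Clec4g* was also lower in LGK974 than in endotoxemic mice (1.53 against 6.95 CPM), with a list median of −0.29. The 8 stellate cell markers summed to 482 to 610 CPM over all libraries, a sum carried by *Dcn*, which rose in endotoxemic mice. Of the other stellate markers *Lrat*, *Reln*, *Col1a1*, *Pdgfrb* and *Colec11* fell there, 5 of the 8, and the median of the list was −2.20. *Col1a1* was higher in LGK974 than in endotoxemic mice (11.1 against 3.68 CPM), with a list median of −0.07. The 9 T and NK cell markers in order summed to 5.82 and 9.84 CPM in control, 12.98 and 15.03 CPM in endotoxemic, and 4.94 and 5.28 CPM in LGK974 mice. Of the 5 tested, *Gzma* and *Gzmb*, which encode granzymes, were called higher in endotoxemic mice, *Gzmb* after passing the filter only through libraries of mice that received LPS. Between LGK974 and endotoxemic mice edgeR and DESeq2 called 0 of these 5, with 2 lower at an unadjusted p below 0.05 and a median of −1.43. B cell markers summed to 0.0755 to 4.36 CPM, with the LGK974 libraries lowest, and *Pax5* was at 0 in all 6 libraries. The part of these cells in the lower *Ripk1*, *Mlkl* and *Ifng* of the LGK974 group was not tested.

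**Figure D5:**
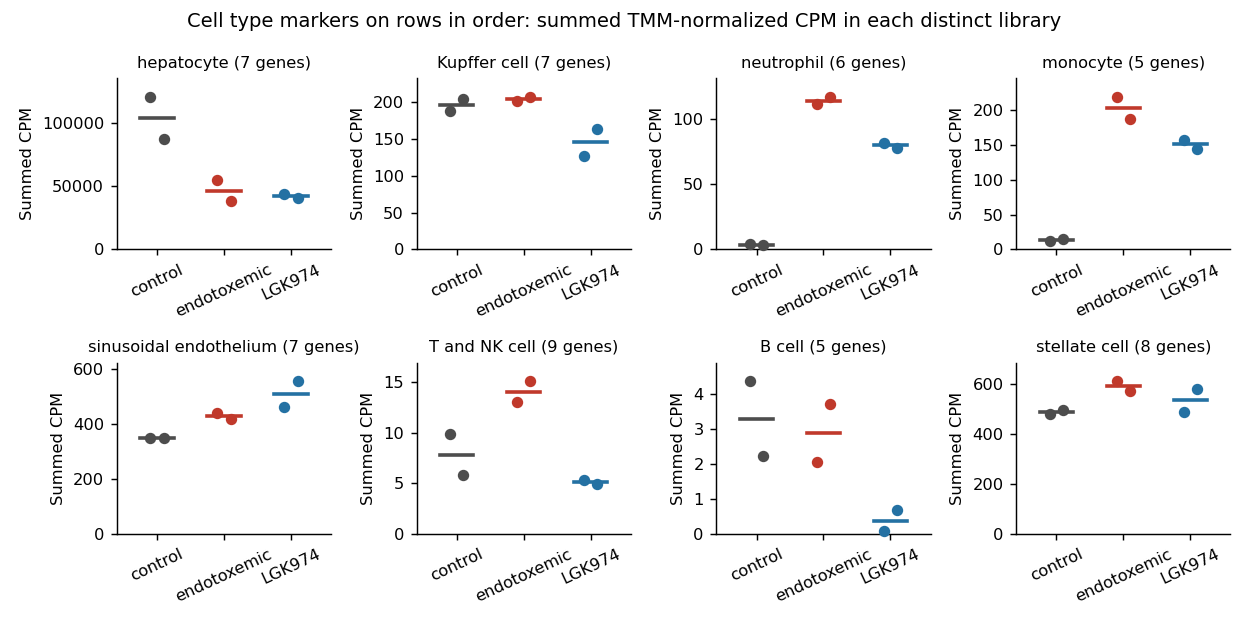
Summed level of the markers of 8 cell types on rows in genomic order, in TMM-normalized CPM on linear axes from 0, with 1 point per distinct library and a line at the group mean (n = 2). Neutrophil and monocyte sums are at most 14.3 CPM in control mice and at least 77.2 CPM in the other groups, and hepatocyte sums are lower in both groups that received LPS.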

How the data were processed

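The authors made libraries from liver RNA with a Lexogen QuantSeq kit, whose tags lie at the 3′ end of transcripts, so that counts do not grow with gene length. They deposited, for each of the 8 libraries, the raw counts of the same 23282 rows, named by gene symbol and not normalized. The submitters' processing notes name Bowtie2, edgeR and mm10, the assembly GRCm38, without their roles or versions. The counting program and the use of strand are not given in the sources used here.

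Total counts of the 6 distinct libraries were 11046257 and 15222439 (control), 9142116 and 9158958 (endotoxemic), and 13573778 and 14575204 (LGK974). Limits at 3 counts cover counting error only. Row order was compared with RefSeq positions on GRCm38.p6, and a row was in order when it belonged to the longest ordered set (22347 rows) or its gene lay within 2 Mb of the ordered genes on both sides. Coordinates are those of GENCODE M21.

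After filterByExpr (12701 rows kept) and TMM normalization, the 6 libraries were fitted together in edgeR 4.0.16 (R 4.3.3) by quasi-likelihood, with the group as the only term, with Benjamini-Hochberg adjustment at 0.05. In a simulation of 12701 genes, where 200 changed between endotoxemic and control libraries, 19% of 2-fold and 81% of 4-fold changes were called, and 5.66% of calls were false. The simulated spread depended only on the level of a gene, and in the data 5513 rows were called in that comparison. These shares therefore do not give the recovery in the data. Alternatives were no filter, at least 10 counts in every library, DESeq2 size factors, DESeq2 1.42.0, library totals without TMM, identical libraries as separate samples, the replicate number as a block, only the groups compared, *Rn45s* or rows out of order left out, other distances for row order, and each library left out in turn.

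Named are the 10 genes, the 2 largest rises and falls past the threshold of each list and comparison (all where 5 or fewer passed, apart from a gene that is not reported here), the 2 rows most like each gene, and markers of cell types. The 10 genes and all lists were chosen with earlier results of these data known. Other genes named for a count, a place or a neighbour were chosen after their values were seen.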

Additional observations from a re-analysis of the deposited data

How the results depend on the processing

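Of 94 values of the 6 genes in order under the alternatives, 92, 82 and 87 kept their direction and side of the threshold in the comparisons of endotoxemic with control, of LGK974 with endotoxemic and of LGK974 with control mice, respectively. The directions that turned were those of differences that had not passed the test: *Casp8* in LGK974 against endotoxemic mice (−0.042 to 0.415 on the log2 scale with libraries left out in turn, negative without endotoxemic library 1), *Zbp1* there (−0.894 to 0.133, positive without LGK974 library 2) and *Ripk1* in LGK974 against control mice (−0.208 to 0.497, negative without LGK974 library 1). The cause was not tested. The same 6 genes were in order at distances of 0.5, 2 and 10 Mb.

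Between LGK974 and endotoxemic mice 714 rows were called, and this number was 1705 without a filter, 1227 with DESeq2, 3259 with the identical libraries as separate samples and 269 with the 2 groups alone. Of the 6 genes, 1 was called there, and 2, 2, 2 and 0 under these settings. Leaving out each library in turn gave 49 to 2242 rows and 0 to 3 of the 6 genes. For endotoxemic against control mice (5513 rows, 5 genes) leaving out a library gave 3432 to 6719 rows and 4 to 5 genes, and for LGK974 against control mice (4328 rows, 5 genes) 2372 to 5369 rows and 4 genes in each case. With at least 10 counts in every library, 3 of the 6 genes were called in the last comparison, since *Ripk3* and *Mlkl* were not tested.

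No source says what a replicate number stands for. The correlations of same-numbered deviations were 0.14, −0.0075 and 0.061, which cannot show whether the libraries were paired. With the replicate number as a block, 2577 rows were higher and 2908 lower in endotoxemic than in control mice, and the block changed no call of the 6 genes; of the pathway genes named, it ended those of *Mavs* (adjusted p = 0.0638), *Bcl2a1a* (0.0543) and *Bcl2l1* (0.0586). Among the 6 genes in order the lowest counts, and so the least precise values, were the 8 to 46 counts of *Ripk3* and the 2 and 21 counts of *Mlkl* in control mice.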
